A study of Mus musculus with 13 samples.

Results

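The keratin associated protein genes were followed in resting mouse back skin. Members were taken by name: every gene whose symbol starts with Krtap and that has a probe set assigned to it alone in the platform annotation, with the brightest probe set kept for a gene that has several. This gave 44 members among 19938 genes. The animals were male C57Bl6 mice at postnatal day 46, a stage labelled telogen, when hair follicles rest between growth phases. They carried no stated allele and received no stated agent, and their lights were on for 12 h and off for 12 h. Whole skin was taken every 4 h and equal RNA of 3 mice was pooled onto 1 Affymetrix array, giving 13 arrays named by hours after the first lights-on (hour 2 to hour 50). Time of day repeats after 24 h, so 7 arrays are light and 6 are dark. The array titled ZT46, at hour 46 and the same time of day as hour 22, was described against the other 12. Each array is a pool, so the spread between arrays is one between pools and not between mice, and the number of arrays limits the precision.

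Keratin associated proteins are the matrix of the hair shaft. They surround the keratin filaments of cortex and cuticle and are tied to them and to each other by disulfide bonds. Their genes lie in clusters and are numbered by subfamily, and the subfamilies are usually grouped into high glycine-tyrosine, high sulfur and ultrahigh sulfur proteins. They are known for late expression in the differentiating shaft of the growing follicle, after the first hair keratins, whereas a resting follicle holds a finished club hair and builds no shaft. LEF1, FOXN1 and HOXC13 are transcription factors known to act on hair keratin genes in the growing follicle.

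Of the 44 members, 40 had a promoter in the RefSeq table for build GRCm38.p6, which gives 250 bases before and 50 bases after the start. The letters of a TATA box were the feature that nearly all of them held. They were counted anywhere in these 300 bases, and their distance from the start was not part of the count. The letters TATAAA or TATATAA stood on the gene's own strand in 39 of the 40 promoters (97.5%), against 9.49% of all 32851 promoters of the same length, and the exception was Krtap5-3. Counted on both strands, TATAAA was in 32 of 40 (80.0% against 13.6% of all) and TATATAA in 16 of 40 (40.0% against 3.24%). A TATATAA followed by A holds both motifs. The 90 bases before the start are shown for 8 members, with the TATA letters in capitals. They were chosen to set 3 members of the chromosome 16 cluster that were far higher on the ZT46 array against their neighbour Krtap13, which was hardly higher, and to do the same for Krtap4-16 and Krtap4-7 against Krtap4-6 on chromosome 11. Krtap17-1 was added as a bright member that was little higher.
Krtap19-3, chr16:88878039-88878128, minus strand: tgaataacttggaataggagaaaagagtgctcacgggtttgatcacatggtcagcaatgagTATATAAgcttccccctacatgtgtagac
Krtap15, chr16:88828919-88829008, plus strand: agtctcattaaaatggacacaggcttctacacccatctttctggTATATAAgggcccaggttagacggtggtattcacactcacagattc
Krtap14, chr16:88826146-88826235, minus strand: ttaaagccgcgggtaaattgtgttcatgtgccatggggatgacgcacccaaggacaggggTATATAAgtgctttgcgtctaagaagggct
Krtap13, chr16:88751629-88751718, minus strand: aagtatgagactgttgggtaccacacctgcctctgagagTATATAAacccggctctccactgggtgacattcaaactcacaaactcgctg
Krtap4-16, chr11:99851606-99851695, minus strand: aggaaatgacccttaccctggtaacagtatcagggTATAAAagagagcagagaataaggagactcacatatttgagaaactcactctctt
Krtap4-7, chr11:99644090-99644179, minus strand: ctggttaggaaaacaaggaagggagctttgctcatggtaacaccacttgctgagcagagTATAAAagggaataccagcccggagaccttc
Krtap4-6, chr11:99665961-99666050, minus strand: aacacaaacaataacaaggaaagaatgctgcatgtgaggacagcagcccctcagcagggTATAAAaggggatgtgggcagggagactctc
Krtap17-1, chr11:99993995-99994084, minus strand: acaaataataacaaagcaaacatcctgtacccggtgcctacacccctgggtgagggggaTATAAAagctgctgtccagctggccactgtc
The TATA letters stood in all 8, whether the member was far or hardly higher. Promoters of the members had a median GC content of 41.33% (34.33% to 55.0%), against 52.67% over all promoters.

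The letters CTTTGAA, the core of sites bound by LEF1 and its relatives, stood on either strand in 9 of the 40 promoters (22.5%), against 5.14% of all promoters. All 9 belonged to the 31 members with a promoter whose ZT46 value was at least 2-fold up, and 0 of the other 9 held them. These matches are described and not tested, and a match of letters is not a bound site. The matches are shown for the chromosome 16 neighbours Krtap19-3, Krtap15 and Krtap14, with CTTTGAA in capitals and 8 bases on each side. Their first bases lie 241 (Krtap19-3), 189 and 136 (Krtap15) and 207 (Krtap14) bases before the start.
Krtap19-3, chr16:88878265-88878287, minus strand: ttatccaaCTTTGAAgtctttgt
Krtap15, chr16:88828812-88828834, plus strand: aataattgCTTTGAAaactaatg
Krtap15, chr16:88828865-88828887, plus strand: aaaaagtcCTTTGAAggttaaag
Krtap14, chr16:88826338-88826360, minus strand: aataacagCTTTGAAgattgaac
Krtap15 held these letters at both places. The letters GACGC, part of the FOXN1 motif, were in 3 of 40 promoters (7.5%: Krtap14, Krtap3-1 and Krtap1-4), against 27.2% of all. Member promoters had a lower GC content than all promoters (medians 41.33% and 52.67%), and the shares of CTTTGAA and GACGC were not adjusted for it.

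The arrays had median intensities of 353.8 to 392.8, and a difference is given as log2 of intensity plus 16, a scale on which the change of a dim gene is understated. Genes in the lowest 25% by mean level were set aside as too dim, which kept 14953 genes for testing. Of the members, 35 were kept, 5 of them only through their ZT46 value, and 9 were too dim. The epidermal keratins of the labelled tissue were high throughout: Krt5, of the basal layer, read 14203 to 15571 on the other arrays and 14583 at ZT46. Albumin (Alb), a liver transcript, read 8511 to 18775 on the other arrays. The ZT46 array stood apart from the others in hair shaft, liver, skeletal muscle and melanocyte genes, as described with the lists. Whether that pool is what its title says was not tested, and each ZT46 value depends on it. On whole skin, more cells of a type and more RNA per cell cannot be told apart. Near-identical copies within a subfamily can share probe signal, so the split of signal among copies is uncertain.

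All 44 members had their highest value on the ZT46 array. Among genes tested, 35 of 35 members did so, against 8.62% of all genes. The difference between ZT46 and the mean of the other 12 ranged from 0.21 to 4.94 in log2 with a median of 3.02 over the 44 members (3.34 over the 35 tested), against a median of -0.04 over all genes tested. It was at least 2-fold, with ZT46 above each other array, in 34 of the 44 members and in 30 of the 35 tested, where 54 genes in all (0.361%) passed, and 25 of the 35 were past 4-fold, against 0.281% of all genes. Of the 30 members that the other 12 arrays alone would have kept, 25 were past 2-fold. The 5 tested members kept only through ZT46 were all past 2-fold and past 4-fold. In the whole family 24 members were past 8-fold and 12 past 16-fold. No tested member was 2-fold lower, while 191 genes were. ZT46 is 1 pool and was singled out with these values known, so this is a description with no test.

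**Figure D1:**
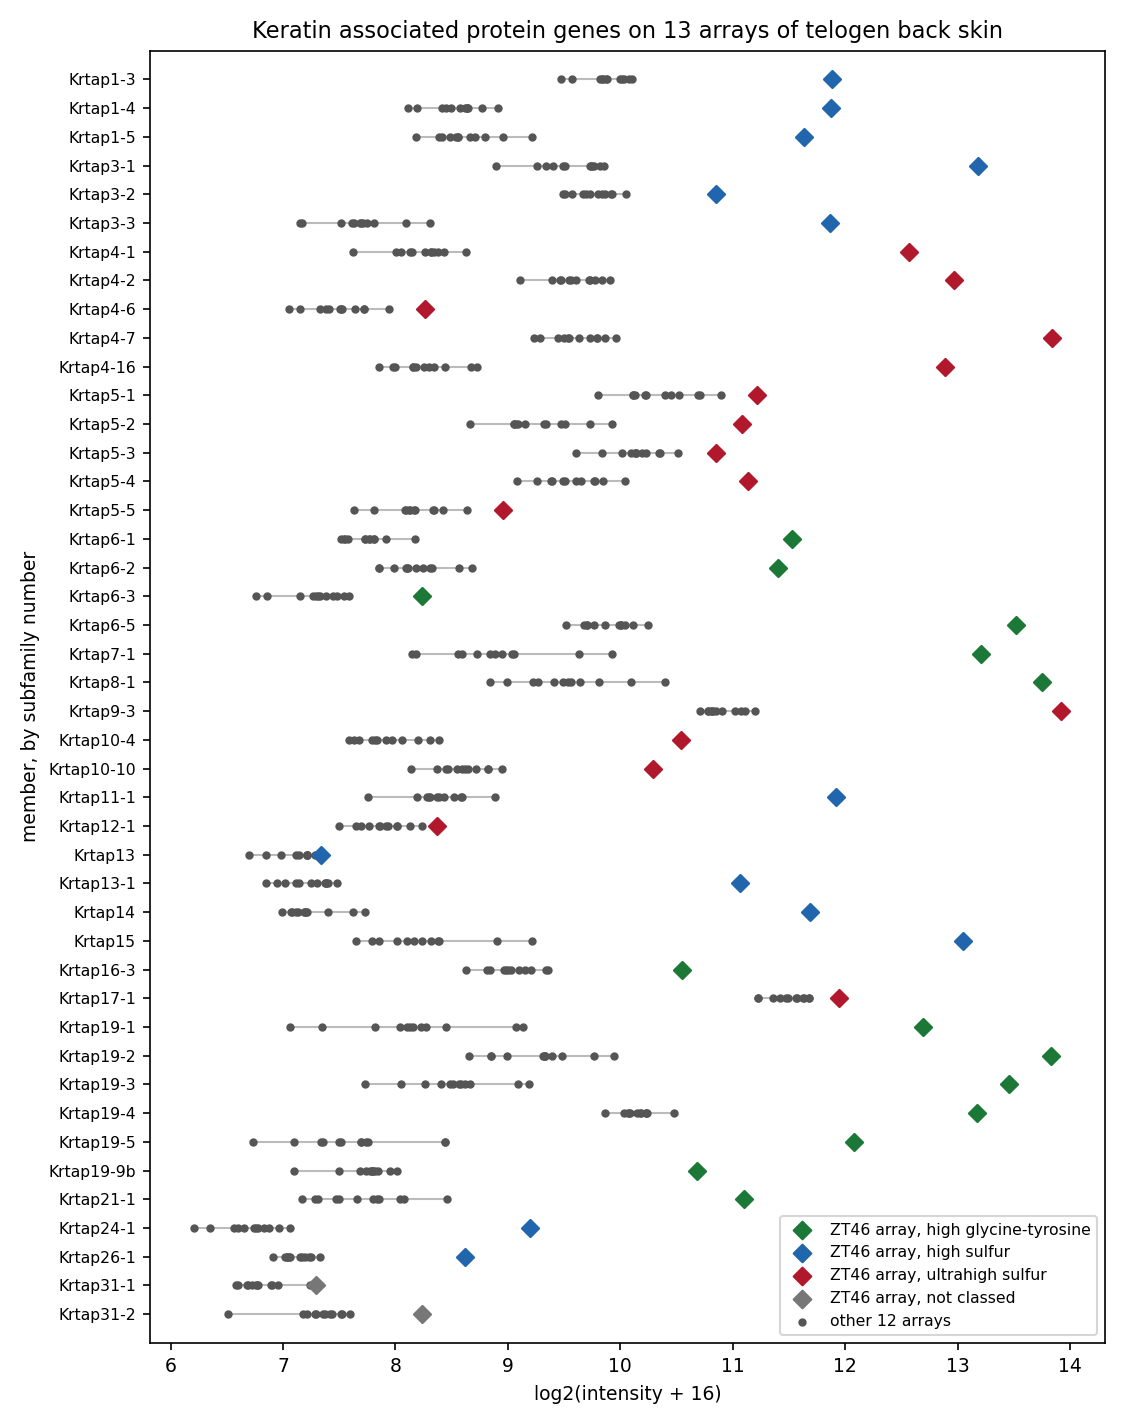
Level of each member as log2(intensity + 16), with small points for the other 12 arrays, a line over their range, and a diamond for ZT46 coloured by protein class. The diamond lies right of the points in all 44 members, far from them in subfamily 19 and next to them in Krtap13, Krtap31-1 and Krtap17-1.

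The 14 high glycine-tyrosine members (subfamilies 6, 7, 8, 16, 19 and 21), which are small proteins of the cortex matrix, had a median difference of 3.71, and 13 of them were past 2-fold. The largest was Krtap19-3. Its intensity was 196 at the lowest, 356 at the median and 566 at the highest of the other 12 arrays, and 11221 at ZT46, or 4.94 in log2. ZT46 stood 19.8 times above the next array. Krtap19-2 read 387, 624 and 970 on the other arrays (lowest, median, highest) and 14565 at ZT46. Krtap19-1 read 117, 266 and 545 against 6592, and its other arrays spread more than those of any other member (SD 0.59 in log2, n = 12). All 6 members of subfamily 19 were past 2-fold, with differences of 2.94 to 4.94. Krtap19-4 read 918, 1127 and 1411 on the other arrays and 9227 at ZT46 (3.02).

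Krtap8-1 and Krtap7-1, the only measured members of their subfamilies, behaved alike. Krtap8-1 read 442 to 1334 on the other arrays and 13774 at ZT46, a difference of 4.23. Krtap7-1 read 267 to 959 and 9415, a difference of 4.33. In subfamily 6 the difference was 3.78 for Krtap6-1, 3.64 for Krtap6-5 and 3.21 for Krtap6-2. Their neighbour Krtap6-3 was the one member of this class under 2-fold, at 92.5 to 176 on the other arrays and 286 at ZT46 (0.96). Krtap21-1 differed by 3.39 and Krtap16-3 by 1.52. Every member of this class was highest at ZT46, as were all 44 members, against 8.62% of all genes tested.

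The 13 high sulfur members (subfamilies 1, 3, 11, 13, 14, 15, 24 and 26) had a median of 3.34, and 12 were past 2-fold. Krtap15 read 185, 278 and 578 on the other 12 arrays (lowest, median, highest) and 8425 at ZT46, a difference of 4.79. Krtap14, which lies beside it, read 111, 130 and 197 against 3284 (4.44), although its level on the other arrays was too dim for the genes tested. Krtap13-1 read 99.1 to 163 and 2129 at ZT46 (3.85). The next gene of the family along the chromosome, Krtap13, read 87.9, 132 and 143 on the other arrays and 146 at ZT46. Its difference of 0.21 was the smallest in the family, and its ZT46 value was 1.02 times the next array, close to no separation.

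Subfamilies 1 and 3 sit side by side on chromosome 11 next to the type I hair keratin Krt40. Krtap1-3 differed by 2.00, Krtap1-5 by 3.01 and Krtap1-4 by 3.34. Krtap3-3 read 126 to 301 on the other arrays and 3717 at ZT46 (4.19), and Krtap3-1 read 461 to 911 and 9293 (3.64). Krtap3-2, which lies between them, read 701 to 1042 and 1826. Its difference of 1.09 was the smallest that passed 2-fold. Krtap11-1 differed by 3.53, and the dim member Krtap24-1 by 2.49. Krtap26-1, also dim, read 104 to 145 on the other arrays and 376 at ZT46.

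The 15 ultrahigh sulfur members (subfamilies 4, 5, 9, 10, 12 and 17), the most cysteine-rich of the matrix proteins, had a median of 1.70, and 9 were past 2-fold. They were split by subfamily. In subfamily 4, on chromosome 11, 4 of 5 were past 2-fold: Krtap4-16 read 216, 282 and 407 on the other arrays against 7540 at ZT46 (4.63), and Krtap4-7 read 584, 755 and 983 against 14675 (4.23). Krtap4-1 differed by 4.35 and Krtap4-2 by 3.37. Krtap4-6, which lies between Krtap4-7 and Krtap4-16 among the members, read 117 to 230 and 290 (0.77). Krtap9-3 read 1657, 1815 and 2326 on the other arrays and 15507 at ZT46 (3.02).

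The remaining ultrahigh sulfur subfamilies, of which 5, 10 and 12 are known from the hair cuticle, moved less. In subfamily 5, the 5 members on chromosome 7, 2 were past 2-fold, and the differences ran from 0.72 to 1.80 with a median of 0.86. Krtap5-1 read 878, 1258 and 1886 on the other arrays and 2361 at ZT46. Krtap10-4 and Krtap10-10 on chromosome 10 differed by 2.61 and 1.70, and Krtap12-1 beside them by 0.49 (165 to 286 on the other arrays, 315 at ZT46). Krtap17-1 differed by 0.45, with 2372, 2935 and 3256 on the other arrays and 3931 at ZT46. Its signal was above the 95th percentile of receptor genes (described with the other lists) on every array. The pair of subfamily 31, which was not classed, differed by 0.49 (Krtap31-1) and 0.93 (Krtap31-2), both dim.

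By chromosome, the median difference was 3.64 for the 21 members on chromosome 16, 3.02 for the 15 on chromosome 11, 1.70 for the 3 on chromosome 10 and 0.86 for the 5 on chromosome 7. Large and small differences lay side by side within a cluster. Position and subfamily go together here and cannot be told apart, since the measured members of each subfamily lie on 1 chromosome.

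**Figure D2:**
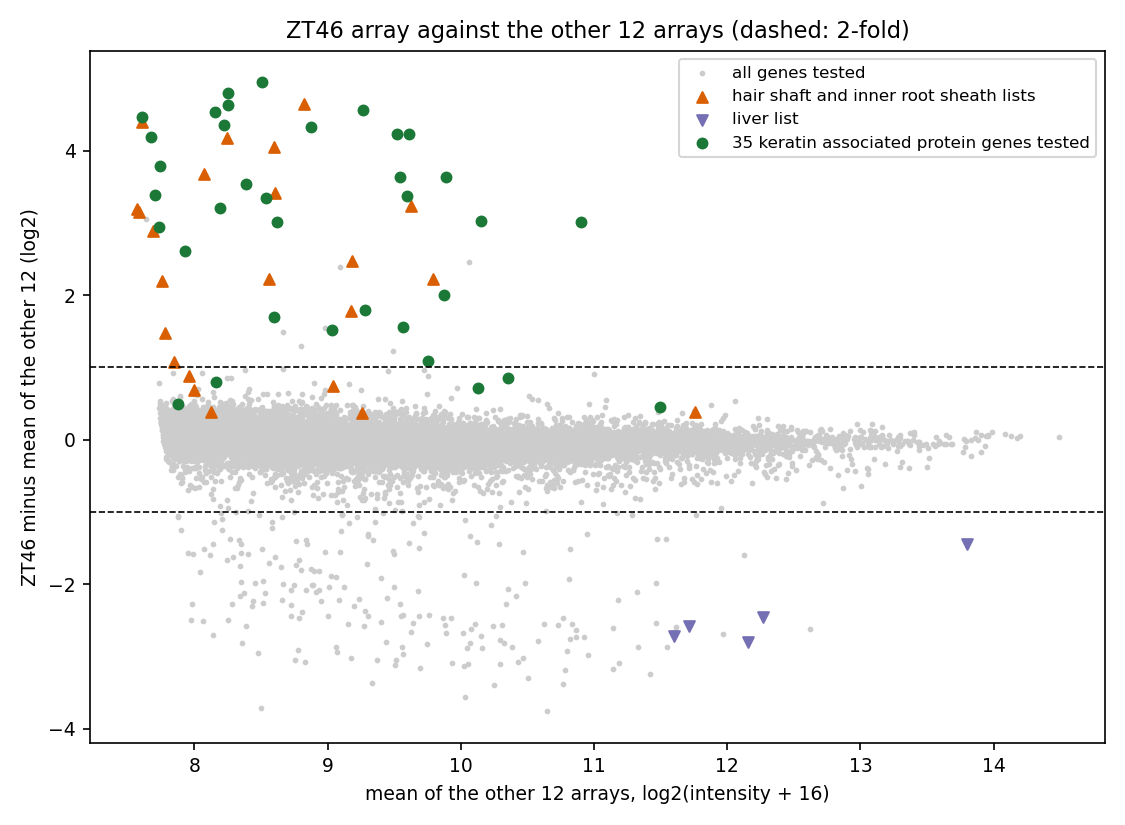
Difference between ZT46 and the mean of the other 12 arrays (log2) for the 14953 genes tested, against that mean on the log2(intensity + 16) scale, with members in green, hair shaft and inner root sheath lists as orange triangles, and liver genes as purple triangles. Of the 54 genes past the upper dashed 2-fold line and above each other array, 30 were members.

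Genes of the same structure moved with them. Of the 54 genes past 2-fold, 30 were members (55.6%), 17 were on the lists of hair shaft and inner root sheath genes (31.5%), and 7 were others (13%). Of these 54 genes, 10 were kept only through their ZT46 value and had to be high there, so these shares are a description. With genes kept on the other 12 arrays alone, 44 genes were past 2-fold: 25 members (56.8%), 13 on those lists (29.5%) and 6 others (13.6%). Of 9 hair shaft keratins tested, 6 were past 2-fold, and 5 of 8 when kept on the other arrays alone, which leaves out Krt86. Krt31, an acidic keratin of the cortex, read 290 to 564 on the other arrays and 11248 at ZT46 (4.64). Krt86 differed by 4.40, Krt33a by 4.18 and Krt87 by 3.23. The other 9 of the 13 measured, tested or not, differed by 0.32 (Krt32) to 2.23 (Krt33b). Of the 5 other shaft genes tested, 3 were past 2-fold, and 2 of 4 without S100a3, which was kept through ZT46 (S100a3, a cuticle calcium-binding protein, 3.19; Psors1c2 2.22; Lrrc15 1.79). Gprc5d, an orphan receptor of the hair cortex that was too dim to be among those tested, read 80.8 to 157 on the other arrays and 1759 at ZT46 (3.68). Of 9 inner root sheath and companion layer genes tested, 8 were past 2-fold with a list median of 2.88, led by Krt71 (4.05), Krt25 (3.68), Tchh, which encodes trichohyalin (3.41), and Krt27 (3.15). Krt27 and Krt28 were kept only through ZT46, and without them 6 of 7 were past 2-fold with a median of 2.48. The tested gene of this list under 2-fold was Krt75, at 2586 to 4485 on the other arrays and 4489 at ZT46 (0.38). Krt74, which was too dim to be tested, differed by 0.41.

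The regulators of the growing follicle were past 2-fold in 0 of 15 genes, with a median of 0.28. Msx2 differed by 0.86, Hoxc13 by 0.63, Dlx3 by 0.57 and Foxn1 by 0.49. Each of these 4 was higher at ZT46 than on any other array. Of the 15 regulators, 7 had their highest value there, against 8.62% of all genes tested. The mean level of the list stood 0.27 above the other 12, outside their range of -0.19 to 0.10. The 12 genes of the resting follicle and bulge had 0 past 2-fold and a median of 0.01, and their list mean of 0.03 lay within the range of the other arrays (-0.29 to 0.15). Proliferation genes had 0 of 9 past 2-fold, with a list mean of 0.24 inside their range (-0.28 to 0.34).

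**Figure D3:**
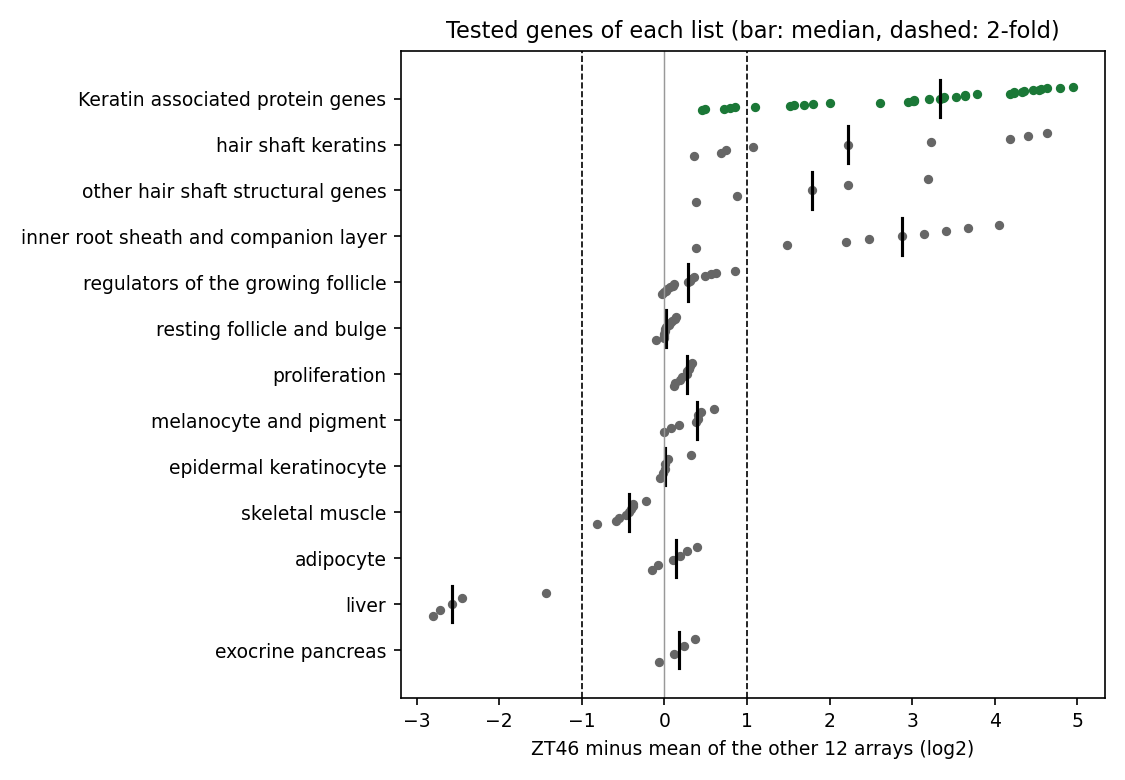
Difference between ZT46 and the mean of the other 12 arrays (log2) for each tested gene of each list, 1 point a gene, with a bar at the list's median and dashed lines at 2-fold. Members, hair shaft and inner root sheath genes reach far right of the line, and the liver genes lie left. Regulators lie from -0.04 to 0.86, proliferation genes from 0.12 to 0.33 and resting follicle genes from -0.10 to 0.14.

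Other lists moved on the same array. All 5 liver genes tested were past 2-fold lower, with a median of -2.58 and a list mean of -2.40, below the range of the other arrays (-1.53 to 0.98). Skeletal muscle genes had 0 of 9 past 2-fold and a list mean of -0.47, below a range of -0.32 to 0.26. Melanocyte genes had 0 of 8 past 2-fold and a list mean of 0.34, above a range of -0.21 to 0.14, with Tyrp1 at 0.60. Epidermal (0 of 6) and adipocyte (0 of 6) genes had list means of 0.11 and 0.12, inside their ranges, and exocrine pancreas genes (0 of 4) had 0.13, also inside. Olfactory and vomeronasal receptor genes, 1194 in all, were used to mark the level of genes mostly not expressed in skin, though some of them may be. Their median was 0.24 above the mean of the other arrays, inside their range of -0.34 to 0.25. The part of these shifts in the members' values was not tested.

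Measured against those receptor genes, 38 of the 44 members exceeded their 95th percentile at ZT46, and 19 to 31 members did so on each other array. On all of the other 12 arrays 19 members exceeded it, among them Krtap9-3, Krtap17-1, Krtap19-4 and Krtap4-7. On none of them did 12 members, among them Krtap14, Krtap3-3 and Krtap13-1. Part of the family thus read above this percentile on the other arrays too. The share of all genes above it was not counted. The percentile was 224 (hour 2) to 353 (hour 46) and lay below the median intensity of its array (353.8 to 392.8 over all arrays). Most probe sets therefore exceeded it as well, and these counts do not set the family apart.

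Within the other 12 arrays the members also moved together, by far less. The median over the 44 members, relative to each member's own mean of those 12, was lowest at hour 2 (-0.43) and highest at hour 10 (0.38) and hour 6 (0.20). Hour 2 held the lowest of the 12 values in 33 members, and hour 10 the highest in 25. The share of all genes with these extremes was not counted. The median over all genes was also lowest at hour 2 (-0.10) and stood at 0.03 at hour 10. The receptor median was also lowest at hour 2 (-0.34) and stood at 0.12 at hour 10 and -0.03 at hour 6. Its highest value among these 12 was at hour 14 (0.25), where the members stood at 0.12. Over the 12 arrays the median correlation between pairs of members was 0.71 (946 pairs, -0.28 to 0.99), and the median correlation of a member with the receptor mean was 0.68. Arrays are shared by all pairs, so these are descriptions.

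**Figure D4:**
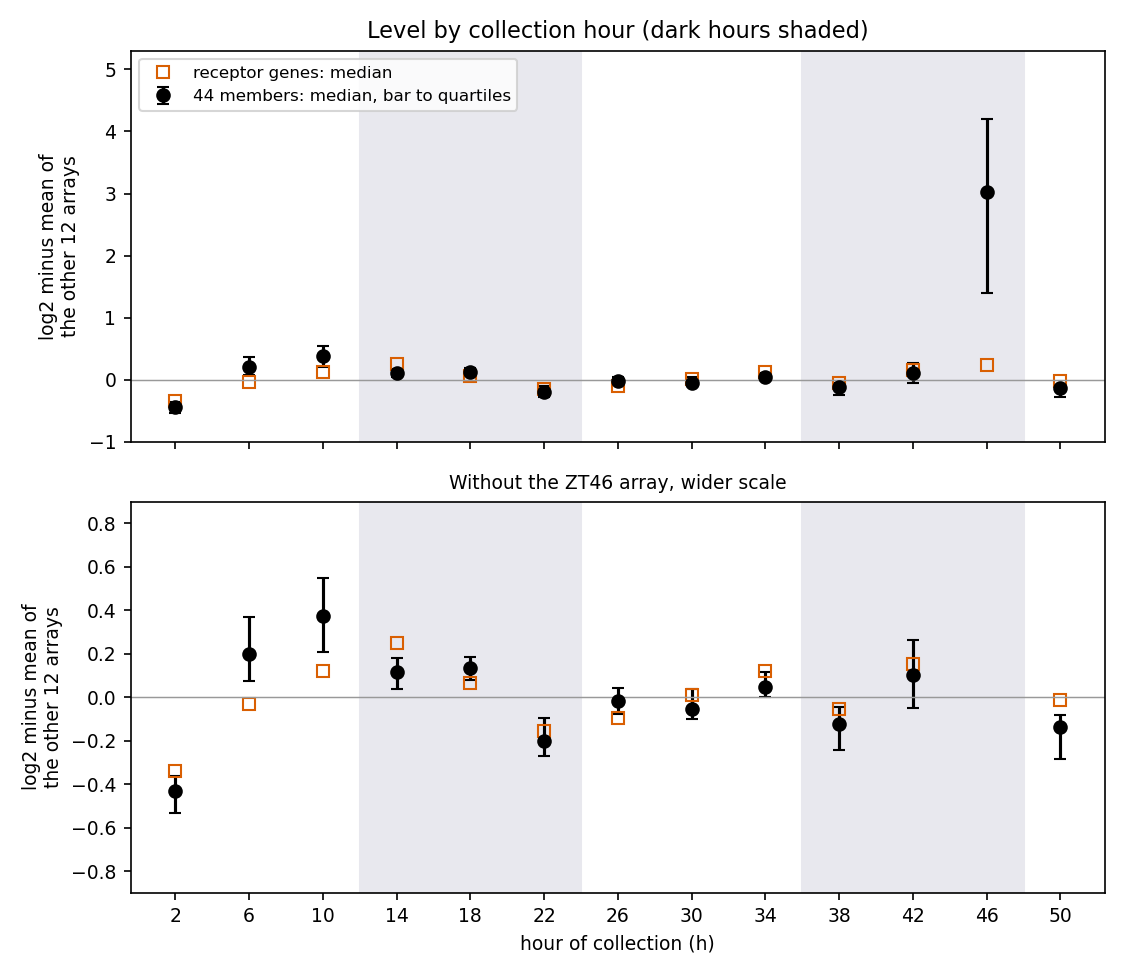
Median over the 44 members (black, bars from the lower to the upper quartile) and over 1194 receptor genes (orange squares) on each array, as log2 minus the mean of the other 12 arrays, by hour of collection with dark hours shaded. The upper panel shows the members at 3.02 at hour 46, and the lower panel, without that array, shows both groups low at hour 2 and the members highest at hour 10.

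The daily rhythm was the question of the time course. Fitted over all 13 arrays with limma (F test on a 24 h cosine and sine, Benjamini-Hochberg adjustment over all genes tested), 0 of the 35 members tested were rhythmic, where 2.13% of all genes were. At an unadjusted p under 0.05 there were also 0 members, against 18.6% of all genes. The adjusted p of the members ran from 0.471 (Krtap17-1) to 0.881. The fitted peaks of 28 of the 35 fell between 18 and 22 h after lights on, the time of day of ZT46, with a median peak-to-trough fold of 1.72. The median SE of the log2 difference was 0.68, so rhythms of this size were not detectable. For Krtap19-3 the curve gave 1.12 ± 1.04 (SE, n = 13 arrays) with an adjusted p of 0.724 (limma).

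Without the ZT46 array the curves were tighter and peaked elsewhere. Again 0 of 35 members passed, against 2.63% of all genes (limma, Benjamini-Hochberg). At an unadjusted p under 0.05 there were 9 (25.7%), a share near that of all genes (24.6%). Krtap4-7 had the lowest adjusted p, 0.104, with a difference of 0.49 ± 0.13 in log2 (SE, n = 12 arrays) peaking at 10.96 h. Krtap19-3 gave 0.57 ± 0.28 (SE, n = 12 arrays) and an adjusted p of 0.356 in the same limma fit. The fitted peaks of 34 of the 35 lay between 8 and 15 h, and the median fold was 1.35 with a median SE of 0.17 in log2. The share of all genes with peaks in the same hours was not counted for either fit. On these 12 arrays the receptor median was lowest at hour 2 and highest at hour 14.

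**Figure D5:**
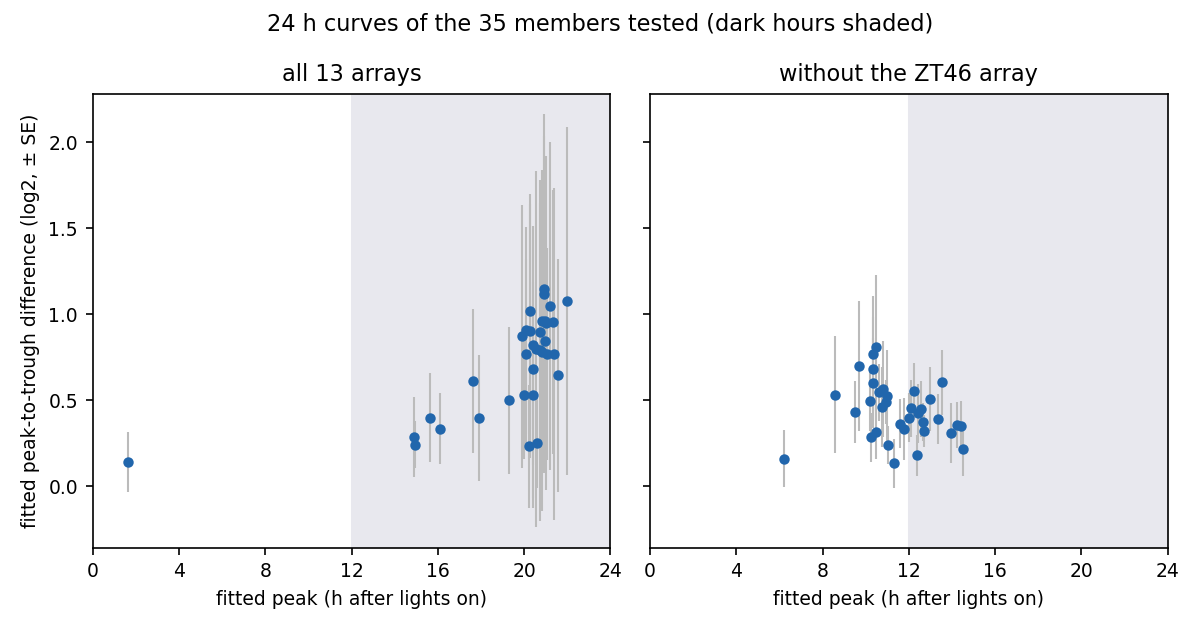
Fitted peak-to-trough difference (log2, bars ± SE) against fitted peak time in hours after lights on for the 35 members tested, with all 13 arrays on the left and without ZT46 on the right, dark hours shaded. Most points lie between 18 and 22 h with wide bars on the left, and between 8 and 15 h with narrow bars on the right.

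Dark minus light gave the same picture. With 6 dark and 7 light arrays, 0 of the 35 members passed (limma, Benjamini-Hochberg), against 0.0201% of all genes, and 0 passed at an unadjusted p under 0.05. The median difference was 0.54, against -0.023 over all genes, and 34 of 35 were positive. The lowest adjusted p was 0.680 (Krtap19-9b, limma). Without ZT46 the share of all genes passing was again 0.0201% and 0 members passed, also at an unadjusted p under 0.05. The median was then -0.00044, against -0.016 over all genes, 17 of 35 were positive, and the lowest adjusted p was 0.991 (limma). The share of all genes that were positive was not counted for either fit. The positive values over 13 arrays therefore rested on 1 array: hour 22, the other collection at that time of day, had a member median of -0.20, against 3.02 at hour 46.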

How the data were processed

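The authors deposited 1 column of linear intensities per array. The submitters' processing notes name PLIER 2.0 and Affymetrix Expression Console 1.1.1. How arrays were normalized, and against which build and annotation, is not given in the sources used here. Intensities were used as log2(intensity + 16) with no further normalization. Probe sets with 1 gene were kept, the brightest per gene. Tests used R 4.3.3 and limma 3.58.1 over 14953 genes, and were tested on simulated data. The members, marker lists and array described were chosen with earlier results of these data known. Members named are the 12 largest and 6 smallest differences and the brightest of each subfamily with several, by mean intensity. Any other member was named after its values were seen. From the lists of hair genes and regulators the 4 largest were named, and Krt5, Krt28, Krt33b, Krt32, Krt74, Krt75, Tyrp1 and Alb after their values were seen. Protein class follows the usual grouping of subfamily numbers, since a planned assignment by protein composition was not run. Promoters and gene order came from RefSeq. Alternatives covered offset, filter, normalization, probe set choice, reference, fold, collection day and each array left out.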

Additional observations from a re-analysis of the deposited data

Results flagged for a closer look

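Among the 6 dark arrays, the members' median at hour 46 stood apart from the rest, with a Dixon ratio (its gap to the nearest array over the whole range) of 0.897. Hour 46 stood apart at the high end in 34 of the 44 members, and in 29 of the 35 tested (82.9%), against 0.508% of all genes tested. The 35 include 5 members kept only through their ZT46 value, and hour 46 stood apart in all 5. This array was singled out with these values known, so the counts are a description. Among the 7 light arrays, hour 2 stood apart at the low end in 2 members, Krtap13 (ratio 0.724) and Krtap31-2 (ratio 0.619). Chance marks about 1 group in 20 by this criterion, and members share arrays.

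Apart from the probe sets used for the 44 members, 15 probe sets list a Krtap gene together with other genes and entered no comparison. Some list members themselves, such as Krtap6-1 with Krtap6-5. Several list the same genes as each other, in part with identical values, so they are not 15 separate results. All 15 were past 2-fold at ZT46 and above each other array, with differences of 1.32 to 3.35 in log2 and a median of 2.82. The share among other probe sets with several genes was not counted.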

How the results depend on the processing

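Over 25 alternatives for ZT46 against the other arrays, the count of tested members past 2-fold was 25 to 34, with 1 exception: 14 of 17 tested when the dimmest 50% of genes were left out, where 23 of 9969 genes passed and fewer members were tested. Leaving out each array in turn gave 30 to 30 members. A filter set on the other 12 arrays alone, chosen after seeing the data, gave 25 of 30. Of 650 values of the 26 named members, 639 moved by less than the spread between arrays, 11 by more, and 0 changed direction, with a range of 0.10 to 5.28. Changes of filter, fold or probe set choice could not move the values of these members. Those settings are among the 639 by construction. Rhythm and dark minus light gave 0 members under each of 21 alternatives, and 0 to 0 with each array left out, but with 1 array left out up to 9 members for rhythm and up to 2 for dark minus light had an unadjusted p under 0.05. Over all genes, dark minus light then called 1 to 26 genes (26 without hour 22) and rhythm 128 to 422. With collection day as a block, which takes out the mean of each day, 0 members passed in either test, and 212 genes for rhythm and 2 for dark minus light. Hour 50 was alone in its day and so added nothing to these 2 fits. Dim members near the receptor level are limited by signal over background.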

Other observations

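Past 2-fold at ZT46 were also 7 genes that are neither members nor on a list. Prr9 differed by 3.05 in log2, Gm11555 by 2.46, Gm11564 by 2.39, Pinlyp by 1.54, Ly6g6g by 1.49, Crym by 1.30 and Car6, a secreted carbonic anhydrase, by 1.22. Gm11555 lies next to Krtap4-7 in RefSeq order, and Gm11564 is listed with members of subfamily 4 on 1 shared probe set.

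Between the first and the second day, at matched hours, the member medians differed by 0.40 in log2 for hour 26 minus hour 2 (42 of 44 members higher), -0.28 for hour 30 minus hour 6 (3 of 44 higher), -0.28 for hour 34 minus hour 10 (3 of 44), -0.23 for hour 38 minus hour 14 (2 of 44), 0.01 for hour 42 minus hour 18 (22 of 44) and 3.19 for hour 46 minus hour 22 (44 of 44). The receptor genes moved between the same arrays by a median of 0.24, 0.04, -0.0020, -0.29, 0.09 and 0.38, in that order, so for hour 38 minus hour 14 they fell by more than the members did. The share of all genes that moved the same way between these arrays was not counted, so the counts of members have no background beside them.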
